A study of Homo sapiens with 10 samples.

Results

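E2 ubiquitin-conjugating enzymes were examined in 10 clones of PC-3, an established line of human prostate cancer cells first grown from a bone metastasis. The genes were those whose platform symbol starts with UBE2, or with PSMA, PSMB, PSMC, PSMD or PSME, the prefixes of proteasome subunits, with pseudogenes left out. This gave 27 of the 14884 named genes of the array. Of these, 23 were protein-coding E2 genes, 1 was PSMC3IP, 3 were antisense long non-coding RNAs named after proteasome genes, and 0 encoded a proteasome subunit. None of 43 listed core subunits, cap subunits, cap chaperones and activators with these prefixes had a named row, so they were not analysed here. The cap proteins SEM1 and ADRM1, whose symbols lie outside the prefixes, were measured and are given with the other genes around the proteasome. The results are therefore on the E2 genes, which are 23 of 35 protein-coding genes with a UBE2 symbol in RefSeq. Of the other E2 genes, such as UBE2C, UBE2D1 and UBE2M, no row was used here.

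The 5 CENPU clones (numbers 1, 4, 5, 7 and 13) carried CENPU, a centromere protein gene, in a lentiviral vector. The 5 control clones (numbers 1 to 5) carried the same kind of vector without an insert. All clones had been selected with blasticidin and propagated as clonal isolates, with no other treatment, and each gave 1 biotin-labelled RNA sample on 1 Affymetrix array. The sources used here do not name the promoter that drives CENPU. Each clone is 1 isolate, and p-values reflect how much such isolates vary. The comparison asks which transcripts differ between clones that overexpress CENPU and clones with the empty vector.

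Ubiquitin is a small protein that is attached to other proteins by a chain of enzymes. An E1 enzyme activates it, an E2 enzyme carries it on a cysteine, and an E3 ligase directs it to a substrate. Chains of one kind send the substrate to the proteasome, a barrel-shaped protease with a regulatory cap, whereas other chains act as signals in DNA repair and inflammation. Related E2 enzymes carry the modifiers NEDD8 and ISG15 in place of ubiquitin. In dividing cells the anaphase-promoting complex, an E3 ligase, uses dedicated E2 enzymes to time the exit from mitosis.

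Array medians lay between 4.62 and 4.76 on the log2 scale, and the number of clones limits the precision of every value. CENPU itself was 8.44-fold higher in CENPU clones, at 9.34 ± 0.43 (SD, n = 5) against 6.26 ± 0.29 (SD, n = 5), and its groups did not overlap. Of the epithelial markers expected in PC-3, KRT18 and KRT19 averaged 10.61 and 10.87 in CENPU clones and 10.82 and 10.53 in control clones, and KRT8 averaged 6.73 and 6.76. VIM, an intermediate filament gene also on that list, rose from 7.79 to 8.52 (difference 0.74, limma adjusted p = 0.00446), with no overlap, and also passed without control 2, CENPU 7 and CENPU 13 (limma adjusted p = 0.0150). EPCAM, a surface protein of epithelial cells, had a log2 difference of 0.85 and did not pass (limma adjusted p = 0.0839), with CENPU clones from 5.97 to 7.62 and control clones from 5.74 to 6.12. The part of these markers in the E2 values was not tested. The measured markers of other cells did not pass in limma. They were the luminal prostate genes KLK2 and KLK3, the leukocyte genes CD14 and LYZ and the endothelial genes PECAM1 and VWF. Their list means over clones were 5.40 to 5.71 in CENPU and 5.47 to 5.69 in control clones for the luminal genes, 3.70 to 4.15 and 3.79 to 4.13 for the leukocyte genes, and 4.56 to 5.21 and 4.69 to 5.06 for the endothelial genes.

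The regulatory sequence of 3 E2 genes is shown because UBE2K and UBE2G1 rose and UBE2O fell between the groups. Each window holds the 250 bases before the RefSeq start on GRCh38.p14, read along the strand of the gene. The positions are chr4:39697886-39698135 (+) for UBE2K, chr17:4366676-4366925 (-) for UBE2G1 and chr17:76453153-76453402 (-) for UBE2O. Capitals mark GGGCGG, the core of the GC box bound by factors of the SP family, on either strand, with overlapping matches counted separately.
UBE2K: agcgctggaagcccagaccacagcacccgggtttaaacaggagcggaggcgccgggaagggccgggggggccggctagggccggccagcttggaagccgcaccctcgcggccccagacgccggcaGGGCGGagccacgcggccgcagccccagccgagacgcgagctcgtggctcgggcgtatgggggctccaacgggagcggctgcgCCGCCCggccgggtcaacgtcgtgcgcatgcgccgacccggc
UBE2G1: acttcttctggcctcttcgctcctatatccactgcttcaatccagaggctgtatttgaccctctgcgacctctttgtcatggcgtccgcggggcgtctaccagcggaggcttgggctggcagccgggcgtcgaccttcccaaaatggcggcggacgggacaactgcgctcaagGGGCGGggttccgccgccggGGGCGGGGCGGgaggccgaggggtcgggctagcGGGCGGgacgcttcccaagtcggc
UBE2O: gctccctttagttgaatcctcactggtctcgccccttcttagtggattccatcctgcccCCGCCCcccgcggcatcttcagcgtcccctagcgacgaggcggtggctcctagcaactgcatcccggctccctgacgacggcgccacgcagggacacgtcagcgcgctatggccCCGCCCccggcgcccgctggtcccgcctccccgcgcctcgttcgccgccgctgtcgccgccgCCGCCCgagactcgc
The GC box core occurred at 2 places for UBE2K, 4 for UBE2G1 and 3 for UBE2O, so the genes that rose and the gene that fell all held it. Of 35116 RefSeq windows of the same length, 42.6% held GGGCGG on at least 1 strand, against 76.9% of 26 windows of the 19 E2 genes that were matched and read. TGACNNNGC, the core of the element bound by the stress factors encoded by NFE2L1 and NFE2L2, was present in 10.9% of all windows and 7.69% of the E2 windows. Those were 1 window each of UBE2K and UBE2Q2, and in UBE2K it is not in capitals. TTTGAA, a core letter string of cell cycle promoters, was in 13.3% of all windows and 7.69% of the E2 windows, which belonged to UBE2T and UBE2U. In UBE2K no match of TGACNNNGC overlapped a GC box core, and a match is only a description of the letters.

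Of the 23 E2 genes, 3 rose in CENPU clones, 1 fell and 19 did not pass (limma, Benjamini-Hochberg adjusted over 16098 named rows, threshold 0.05). UBE2K, UBE2H and UBE2G1 rose by 1.50-fold, 1.62-fold and 1.32-fold, and UBE2O was 1.25-fold lower. The background was 5.31% of all named genes called higher and 4.79% called lower, 10.1% in all, against 13.0% and 4.35% of the E2 genes. With so few genes, these shares rest on single calls. The median log2 difference was 0.23 over the E2 genes and -0.02 over all named genes, and 13 E2 genes had a difference above 0 and 10 below. Over all named genes 6984 were above 0 and 7900 below. At an unadjusted p under 0.05 there were 11 E2 genes higher and 1 lower, where 27.9% of all named genes reached that level in either direction. After median centring of the arrays 1 E2 gene was called higher and 1 lower, with 9.02% of all named genes called, and UBE2G1 and UBE2H no longer passed. After quantile normalization it was 3 and 1, with 11.5% called. With dim rows left out (15.4% called) 3 E2 genes were higher, with a trended robust variance (9.09% called) 2, with array weights (15.1% called) 4 and with the mean of a gene's rows (9.81% called) 2, each with 1 lower.

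The number of E2 calls went with the number of calls over all genes when 1 clone was left out. Without CENPU 1, 4, 5, 7 or 13 the share of all named genes called was 16.6%, 13.3%, 5.80%, 4.62% and 5.38%, with 5, 5, 1, 1 and 1 E2 genes higher. Without control 1, 2, 3, 4 or 5 it was 9.55%, 4.62%, 5.51%, 4.12% and 5.61%, with 3, 1, 1, 1 and 1 E2 genes higher. UBE2K passed in all 10 of these fits. The fit without control 2, CENPU 7 and CENPU 13 together kept CENPU 1, 4 and 5 against control 1, 3, 4 and 5. It called 3.16% of all named genes. The clones left out were those at the ends of the trend with genomic span in earlier results of these data. Because they were chosen from the same arrays, a gene's change in that fit is no independent check.

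**Figure D1:**
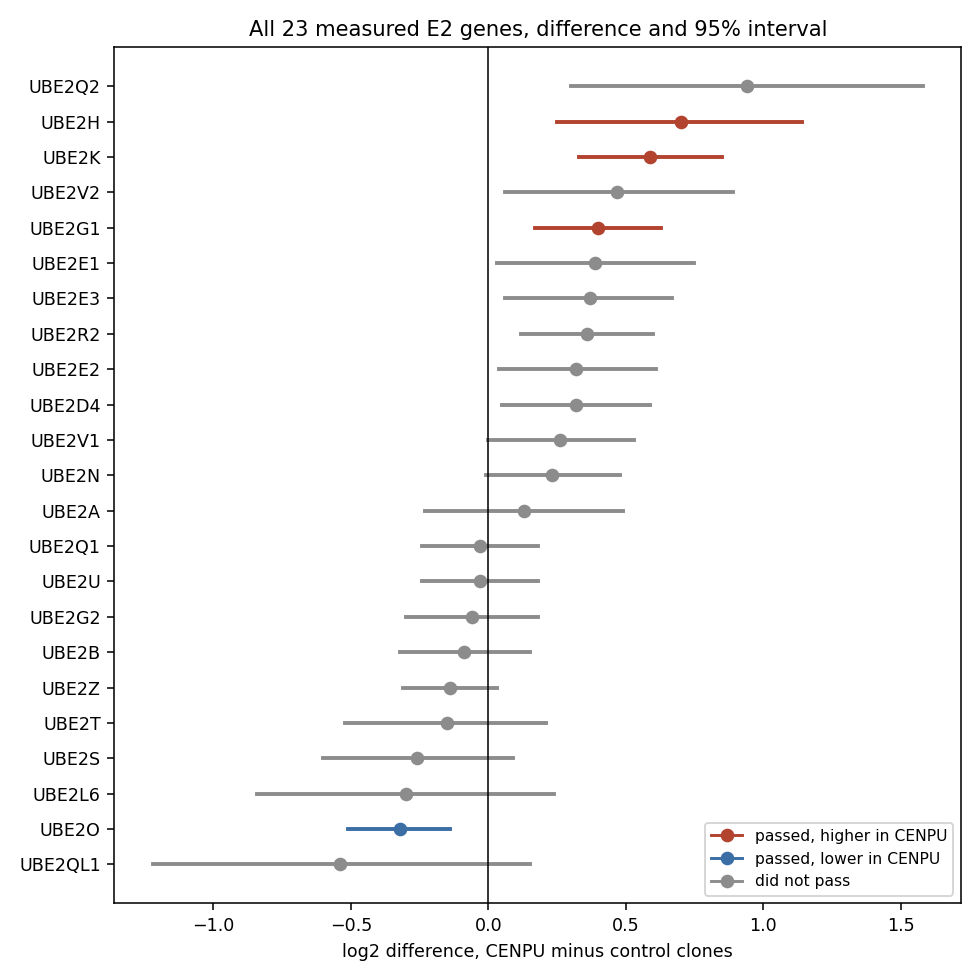
Log2 difference between CENPU and control clones (x axis) for each of the 23 measured E2 genes (y axis), with 95% intervals that are not adjusted for the number of genes. Red marks the 3 genes that passed and were higher, blue the 1 that was lower and grey the others, and UBE2Q2 at the top (0.94) and UBE2QL1 at the bottom (-0.54) did not pass.

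UBE2K, an E2 enzyme that can build ubiquitin chains by itself, was the E2 gene of smallest p. Its log2 values were 9.41, 9.39, 9.68, 9.82 and 9.92 in CENPU clones 1, 4, 5, 7 and 13, and 8.97, 9.05, 9.18, 8.93 and 9.15 in control clones 1 to 5. Every CENPU clone lay above every control clone, and clones 7 and 13 were the highest. The means were 9.65 ± 0.24 (SD, n = 5) and 9.06 ± 0.11 (SD, n = 5), a log2 difference of 0.59 (SE 0.12, limma adjusted p = 0.0142). The call held in 17 of 19 alternative analyses, among them every fit that left out 1 clone. It was lost without control 2, CENPU 7 and CENPU 13 together (0.44, limma adjusted p = 0.0868).

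UBE2G1, which works with cullin ligases, and its relative UBE2G2, which serves the degradation of proteins from the endoplasmic reticulum, gave different values. UBE2G1 was 9.49, 9.56, 9.87, 9.81 and 9.87 in CENPU clones 1, 4, 5, 7 and 13 and 9.46, 9.27, 9.41, 9.20 and 9.27 in control clones 1 to 5. The groups did not overlap, but CENPU 1 and control 1 were close to each other. The log2 difference was 0.40 (SE 0.11, limma adjusted p = 0.0359). Leaving out any of CENPU 5, 7 and 13 or control 2, 3, 4 and 5 ended the call, with differences of 0.36 to 0.42 and limma adjusted p from 0.0587 to 0.0935, and without control 2, CENPU 7 and CENPU 13 it was 0.30 (limma adjusted p = 0.245). UBE2G2 had a log2 difference of -0.06 (95% interval -0.30 to 0.18) and did not pass, and the difference between the pair was not tested.

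UBE2H, the E2 partner of the CTLH ligase complex, was 6.68, 6.52, 7.26, 7.51 and 7.49 in CENPU clones 1, 4, 5, 7 and 13. In control clones 1 to 5 it was 6.54, 6.0, 6.53, 6.45 and 6.47. CENPU clones 5, 7 and 13 were clearly above the controls, whereas CENPU 4 lay just under control 1, so the groups overlapped. The log2 difference was 0.70 (SE 0.20, limma adjusted p = 0.0498), close to the threshold. Leaving out CENPU 5, 7 or 13, or any control clone, ended the call, with differences of 0.59 to 0.73 and limma adjusted p from 0.0636 to 0.119. Control 2 was the lowest clone, and without it the difference was 0.60. Without control 2, CENPU 7 and CENPU 13 together it was 0.33 (limma adjusted p = 0.334).

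UBE2O, a large enzyme with both E2 and E3 activity that clears unassembled proteins, was the 1 E2 gene that fell. It was 10.09, 10.07, 9.90, 9.86 and 9.91 in CENPU clones 1, 4, 5, 7 and 13 and 10.17, 10.35, 10.36, 10.32 and 10.26 in control clones 1 to 5. All CENPU clones lay below all control clones within a narrow range. The log2 difference was -0.32 (SE 0.09, limma adjusted p = 0.0342). Leaving out CENPU 5, 7 or 13 or control 2, 3, 4 or 5 ended the call, with limma adjusted p from 0.0659 to 0.0877 and differences of -0.30 to -0.33, and without control 2, CENPU 7 and CENPU 13 it was -0.26 (limma adjusted p = 0.238). The groups of 3 E2 genes did not overlap (UBE2K, UBE2G1 and UBE2O), 13.0% of the E2 genes against 9.73% of all named genes (4.54% with CENPU clones higher and 5.19% with them lower).

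**Figure D2:**
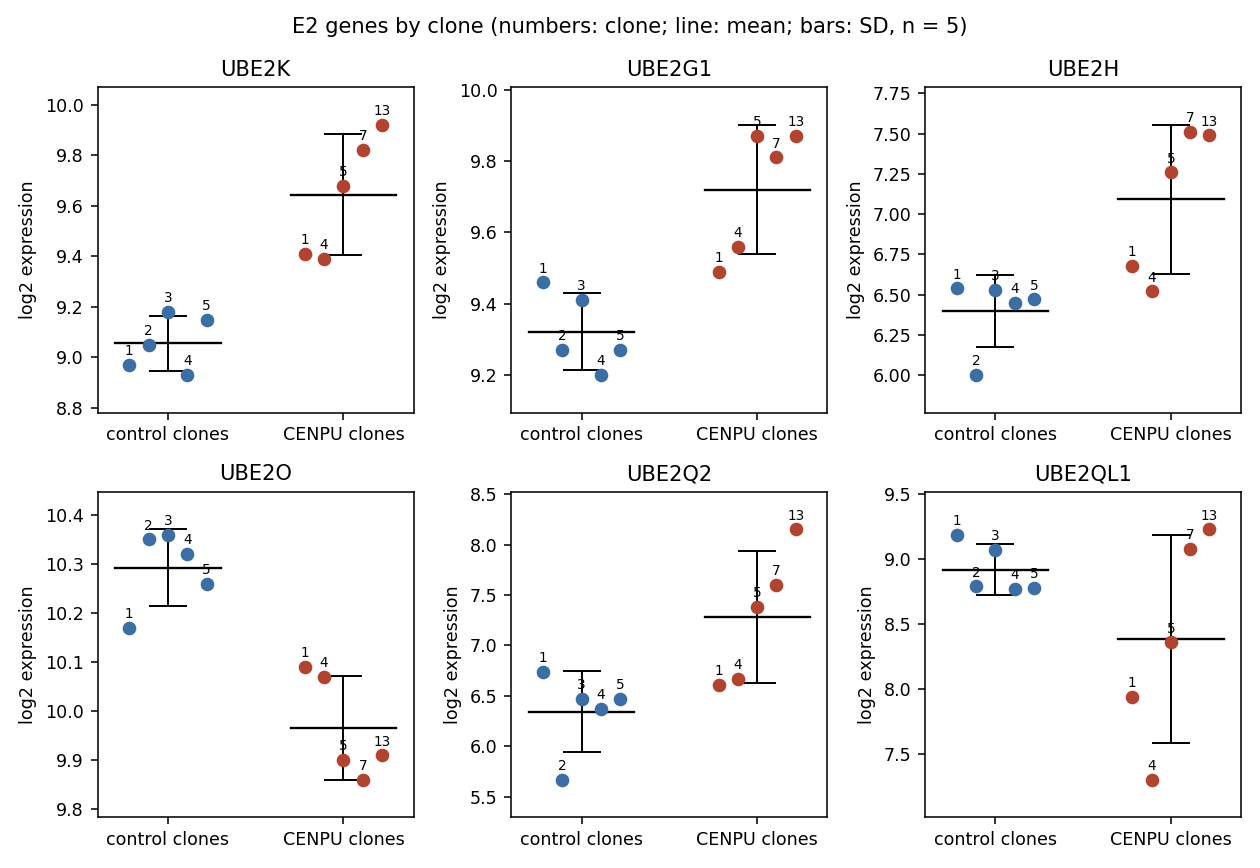
Log2 expression (y axis) of 6 E2 genes in the 5 control clones (blue) and the 5 CENPU clones (red), with clone numbers, the group mean as a line and the SD as bars. UBE2K, UBE2G1 and UBE2O separate the groups, UBE2H overlaps at CENPU 4 and UBE2Q2 at CENPU 1 and 4, and UBE2QL1 is low in CENPU 1, 4 and 5 only.

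UBE2Q2 had the largest log2 difference of the E2 genes, 0.94 (SE 0.29), but did not pass (limma adjusted p = 0.0624). UBE2Q enzymes form a separate branch of the family with a long N-terminal region. UBE2Q2 was 6.61, 6.67, 7.38, 7.60 and 8.15 in CENPU clones 1, 4, 5, 7 and 13 and 6.74, 5.67, 6.47, 6.37 and 6.47 in control clones 1 to 5. CENPU 1 and 4 were within the range of the controls, and control 2 was the lowest clone. It passed without CENPU 1 (1.11, limma adjusted p = 0.0260), without CENPU 4 (1.09, limma adjusted p = 0.0345) and with array weights (0.91, limma adjusted p = 0.0250). The difference was 0.37 without control 2, CENPU 7 and CENPU 13 (limma adjusted p = 0.332). Its relative UBE2Q1 had a log2 difference of -0.03 (95% interval -0.24 to 0.18).

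UBE2QL1, the third gene of this branch, showed the widest spread among CENPU clones. It was 7.94, 7.30, 8.36, 9.08 and 9.23 in CENPU clones 1, 4, 5, 7 and 13 and 9.19, 8.79, 9.07, 8.77 and 8.78 in control clones 1 to 5. CENPU 1, 4 and 5 lay below all controls, CENPU 7 lay within their range and CENPU 13 just above it. Over all clones the log2 difference was -0.54 (SE 0.31, limma adjusted p = 0.288). Without control 2, CENPU 7 and CENPU 13 it was -1.09 and passed (limma adjusted p = 0.0314), and it was the 1 E2 gene called in that fit.

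UBE2R2 and CDC34 are sister enzymes that extend chains on substrates of cullin ligases, and CDC34 lies outside the symbol rule. UBE2R2 averaged 10.16 ± 0.15 (SD, n = 5) with CENPU against 9.80 ± 0.18 (SD, n = 5) with the empty vector, a log2 difference of 0.36 that did not pass (limma adjusted p = 0.0589). CDC34 fell by 0.75 on the log2 scale (SE 0.18, limma adjusted p = 0.0243). The lowest CENPU clone was clone 4 (7.71) and the highest clone 1 (8.67). Among controls, clone 1 was lowest (8.73) and clone 2 highest (9.42), so the groups did not overlap. Without control 2, CENPU 7 and CENPU 13 the difference was -0.73 and did not pass (limma adjusted p = 0.0984). The difference between these sisters was not tested.

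The UBE2D and UBE2E enzymes pair with many E3 ligases. All 4 measured members had log2 differences above 0, and none of the 4 passed in limma. The differences were 0.32 for UBE2D4, 0.39 for UBE2E1, 0.32 for UBE2E2 and 0.37 for UBE2E3, with limma adjusted p from 0.113 to 0.148. All 4 were under 0.05 before adjustment in limma, a level that 27.9% of all named genes reached in either direction. Of the 14884 named genes, 6984 had a difference above 0. UBE2E1 ranged from 5.66 to 6.56 in CENPU clones and from 5.66 to 5.93 in control clones, with CENPU 7 and 13 on top, and UBE2E3 from 7.33 to 7.80 and from 6.98 to 7.60. UBE2E1 passed without CENPU 1 (0.51, limma adjusted p = 0.0332), and UBE2E3 without control 1 (0.47, limma adjusted p = 0.0368). Without control 2, CENPU 7 and CENPU 13 UBE2E1 differed by 0.14 (limma adjusted p = 0.647) and UBE2E3 by 0.39 (limma adjusted p = 0.245). With the span trend removed they differed by 0.20 and 0.18 (limma adjusted p = 0.340 and 0.458).

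UBE2N forms a dimer with UBE2V1 or UBE2V2, which lack the catalytic cysteine, and the dimers build signalling chains in DNA repair and inflammation. All members of this trio had log2 differences above 0 and did not pass, at 0.23 for UBE2N, 0.26 for UBE2V1 and 0.47 for UBE2V2 (limma adjusted p = 0.204, 0.180 and 0.128). UBE2V2 was 5.24, 4.93, 5.82, 5.69 and 5.98 in CENPU clones 1, 4, 5, 7 and 13, and its control clones ranged from 4.75 to 5.22. CENPU 4 thus lay inside the control range, and without it the log2 difference was 0.63 and passed (limma adjusted p = 0.0288). It was 0.20 without control 2, CENPU 7 and CENPU 13 (limma adjusted p = 0.645). UBE2A and UBE2B, the near-identical pair that marks DNA damage and histones, had log2 differences of 0.13 (95% interval -0.23 to 0.49) and -0.09 (95% interval -0.32 to 0.15).

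UBE2S, which extends chains on substrates of the anaphase-promoting complex, had a log2 difference of -0.26 (95% interval -0.60 to 0.09, limma adjusted p = 0.314). CENPU clones lay between 8.64 (clone 13) and 9.24 (clone 1), controls between 8.88 (clone 3) and 9.59 (clone 2), so the groups overlapped widely. UBE2T, the E2 of the Fanconi anaemia repair pathway, had a log2 difference of -0.15 (95% interval -0.52 to 0.21). The 14 measured proliferation genes, a list that includes TOP2A and MKI67, averaged 8.24 to 9.17 in CENPU clones and 7.23 to 8.41 in control clones. Of them 5 rose and 1 fell, 42.9% of the list against 10.1% of all named genes. TOP2A, CCNB2, KIF4A, PRC1 and ECT2 rose and AURKB fell (-0.72, limma adjusted p = 0.0147). MKI67 (0.68, limma adjusted p = 0.194) was among the 8 that did not pass. Without control 2, CENPU 7 and CENPU 13, 0 passed in either direction in limma, where 3.16% of all named genes were called. In that fit 6 of 14 were under an unadjusted p of 0.05, against 18.2% of all named genes. The part of the proliferation genes in the E2 values was not tested.

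Of the 16 measured subunits and activators of the anaphase-promoting complex, 5 rose, 1 fell and 10 did not pass. The calls were 37.5% of the list, against 10.1% of all named genes. The list median was 0.21 on the log2 scale. ANAPC1, the largest scaffold subunit, rose by 1.36, and CDC27, CDC16 and CDC23, repeat proteins of its upper arm, rose by 1.02, 0.93 and 0.83. ANAPC4 rose by 0.52 from a dim row. ANAPC2, the cullin-like catalytic subunit that receives the E2, fell by 0.45, and its limma adjusted p was 0.0317. CDC20, the mitotic activator, had a log2 difference of 0.08 and did not pass. Without control 2, CENPU 7 and CENPU 13, 2 members were higher and 0 lower (limma), where 3.16% of all named genes were called. In that fit 6 of 16 were under an unadjusted p of 0.05, against 18.2% of all named genes.

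UBE2L6 carries ISG15, an interferon-induced modifier, which UBA7 activates. UBE2L6 was 6.65, 6.05, 7.21, 6.59 and 5.88 in CENPU clones 1, 4, 5, 7 and 13 and 6.35, 7.06, 7.09, 6.95 and 6.44 in control clones 1 to 5. Clones of either group were both high and low, and the log2 difference of -0.30 (95% interval -0.84 to 0.24) did not pass. UBA7 fell by 0.70 (SE 0.20, limma adjusted p = 0.0473), with CENPU clones from 5.02 to 5.85 and control clones from 5.61 to 6.54. It did not pass without control 2, CENPU 7 and CENPU 13 (-0.81, limma adjusted p = 0.0742). After median centring and with the span trend removed 0 E1 genes passed, so UBA7 did not pass there either (9.02% and 10.5% of all named genes called). ISG15 had a log2 difference of -0.91 and did not pass (limma adjusted p = 0.0753). It was 9.67 to 10.54 in CENPU clones and 10.18 to 11.72 in controls, with control 2, 3 and 4 highest.

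The remaining E2 genes differed little. UBE2Z, which takes ubiquitin from UBA6, had a log2 difference of -0.14 (95% interval -0.31 to 0.03). UBE2U was the dimmest, with means of 2.69 and 2.72, and was the 1 E2 gene at or below the median row of the table. Of the E1 genes, UBA6 had a log2 difference of 0.87 (limma adjusted p = 0.190) and UBA1 of -0.12. UBA7 was the 1 of 7 measured that passed, 14.3% against 10.1% of all named genes.

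E2 levels also differed between clones of the same group. The median over 23 E2 genes of the deviation from each gene's mean in all clones was -0.03, -0.01, 0.03, 0.19 and 0.22 in CENPU clones 1, 4, 5, 7 and 13. In control clones 1 to 5 it was 0.01, -0.25, -0.12, -0.14 and 0.00. CENPU 7 and 13 were thus at the upper end and control 2 at the lower end, while CENPU 1 and 4 and control 1 and 5 were close together. The same median over all named genes lay between -0.06 and 0.01 in every clone. In CENPU 7, 17 E2 genes were above their own mean, and in control 4 it was 5.

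**Figure D3:**
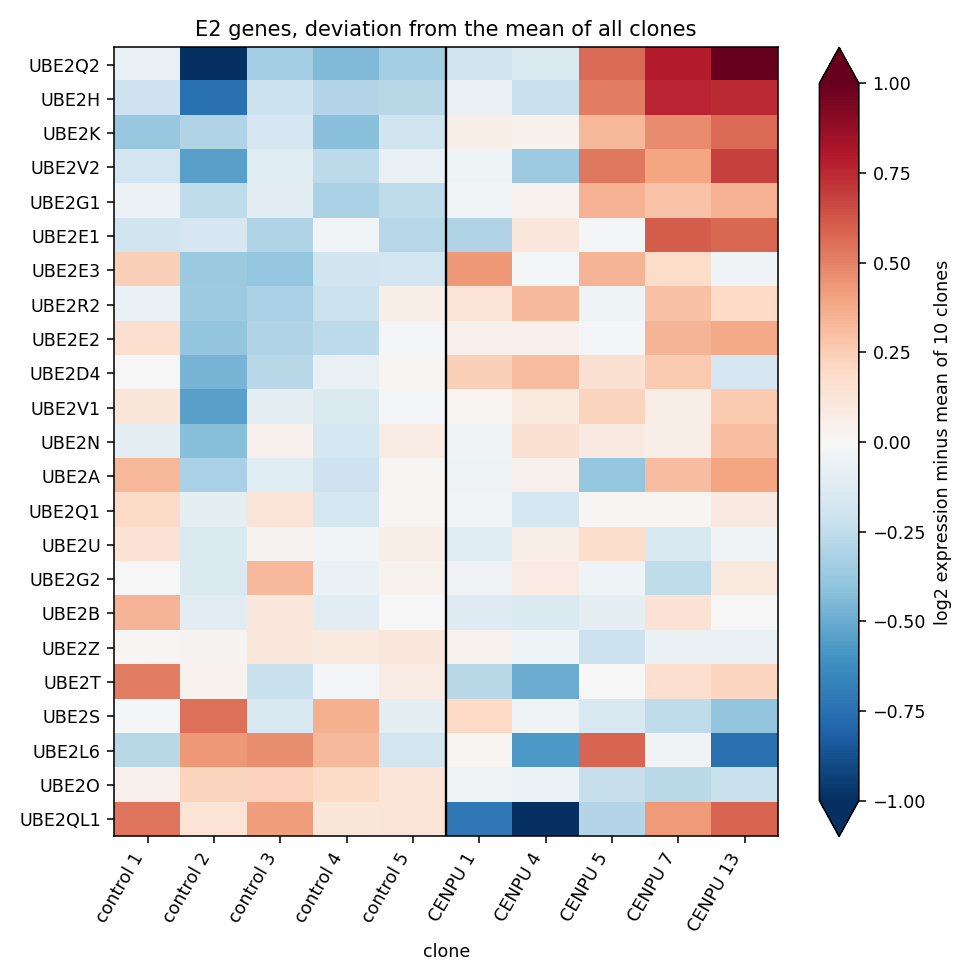
Deviation of each E2 gene (rows, ordered by log2 difference) from its mean over the 10 clones (columns), as log2 values from blue (low) to red (high), with values beyond 1 in either direction drawn at the end of the scale. CENPU 7 and 13 are red over most upper rows and control 2 is blue there, and UBE2QL1 in the last row is low in CENPU 1, 4 and 5.

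Genes of long genomic span, the distance from start to end, tended to be higher in CENPU clones on these arrays, so the E2 values were set beside that trend. From the shortest to the longest quintile of protein-coding genes, the median log2 difference was -0.11, -0.07, 0.01, 0.08 and 0.13. Of the 23 E2 genes, 52.2% lay in the longest 2 quintiles of span among 11916 protein-coding genes, against 40.0% of those genes by construction. The E2 medians were -0.15 over 5 genes in the second quintile, 0.08 over 6 in the third, 0.38 over 8 in the fourth and 0.38 over 4 in the longest, with 0 E2 genes in the shortest. UBE2K and UBE2O lay in the fourth quintile and UBE2G1 and UBE2H in the longest, and 14 of 23 E2 genes were above the median of their quintile. With the span trend removed from each array, UBE2K differed by 0.40 (limma adjusted p = 0.0223) and UBE2O by -0.49 (limma adjusted p = 0.0285), and both still passed. UBE2G1 differed by 0.20 (limma adjusted p = 0.164) and UBE2H by 0.49 (limma adjusted p = 0.0523) and did not. In that fit 10.5% of all named genes were called, and the E2 median was 0.13. It was 0.11 without control 2, CENPU 7 and CENPU 13, where 0 E2 genes were called higher in limma and an unadjusted p under 0.05 was found for 4 E2 genes that were higher and 2 that were lower, a level that 18.2% of all named genes reached in either direction.

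**Figure D4:**
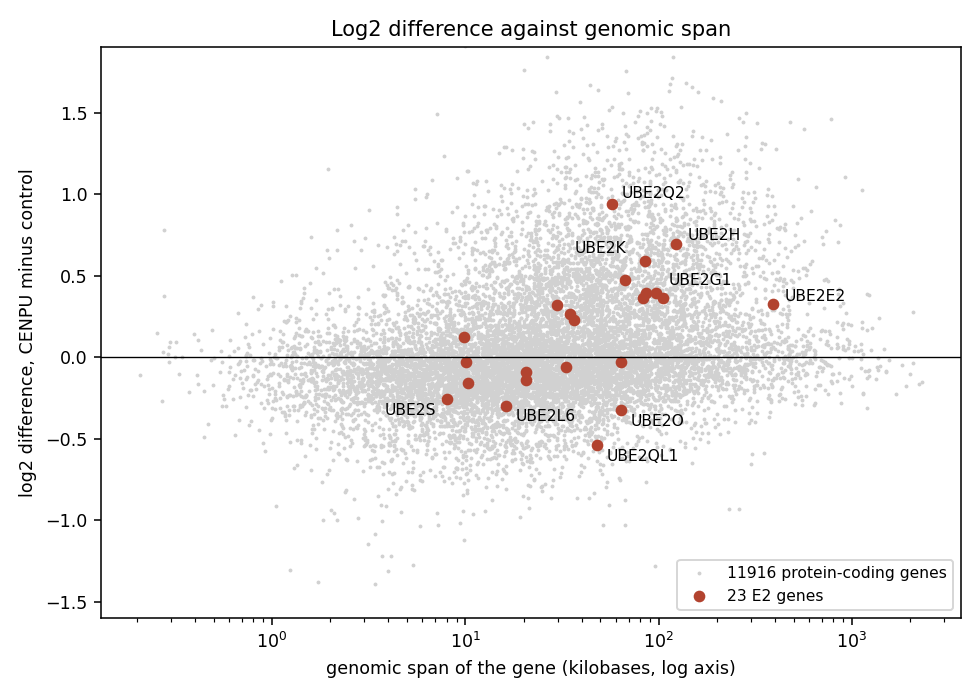
Log2 difference (y axis) against the genomic span of the gene in kilobases (x axis, log scale) for 11916 protein-coding genes (grey) and the 23 E2 genes (red). The y axis ends at -1.6 and 1.9 and leaves out 9 genes, and E2 genes of short span such as UBE2S and UBE2L6 lie below 0 while most of the longest lie above it.

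Genes around the proteasome that lie outside the symbol rule were read from the same fit. POMP, the chaperone that matures the core particle, rose by 0.99 on the log2 scale (SE 0.15, limma adjusted p = 0.00433). It was 10.05, 9.38, 9.96, 10.01 and 10.12 in CENPU clones 1, 4, 5, 7 and 13 and 9.12, 8.97, 9.05, 8.57 and 8.87 in control clones 1 to 5. The groups did not overlap, and CENPU 4 was nearest to the controls. SEM1, a small subunit of the cap lid, rose by 0.59 (limma adjusted p = 0.0204), from 4.43 to 4.85 in control clones to 4.90 to 5.51 in CENPU clones. Its control mean of 4.67 was as low as the array medians, and the values are of the brighter of its 2 rows. ADRM1, a ubiquitin receptor of the cap, had a log2 difference of -0.44 and did not pass on the deposited values (limma adjusted p = 0.0626). Of 8 measured genes of proteasome assembly and binding, 2 rose, 0 fell and 6 did not pass, with a median of 0.39. The calls were 25.0% of the list, against 10.1% of all named genes, and rest on single genes. Without control 2, CENPU 7 and CENPU 13, POMP differed by 0.90 and passed (limma adjusted p = 0.0324), SEM1 by 0.50 and did not (limma adjusted p = 0.0887), and the list median was -0.06. After quantile normalization 2 rose and 1 fell, with 11.5% of all named genes called. After median centring it was also 2 and 1, with 9.02% called. With the span trend removed 1 rose and 0 fell, with 10.5% called.

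Of the factors that control proteasome genes, NFE2L2, the oxidative stress factor, rose by 0.96 (limma adjusted p = 0.0479), and NFE2L1, which raises subunit genes when the proteasome is blocked, had a log2 difference of -0.39 (limma adjusted p = 0.0698). NFE2L2 was the 1 of 3 measured that passed, 33.3% against 10.1% of all named genes. After quantile normalization 0 of the 3 were higher and 1 was lower, with 11.5% of all named genes called. After median centring 0 passed (9.02% called), and with the span trend removed 1 was higher (10.5% called). NFE2L2 was 4.66 in CENPU 1, inside the control range of 4.51 to 5.09, and 5.80 to 6.34 in the other CENPU clones, and it did not pass without control 2, CENPU 7 and CENPU 13 (0.69, limma adjusted p = 0.292). UBB, 1 of the polyubiquitin genes, rose by 0.61 (limma adjusted p = 0.00440), from 6.97 ± 0.10 (SD, n = 5) in controls to 7.58 ± 0.14 (SD, n = 5) in CENPU clones. Its groups did not overlap, and it passed without control 2, CENPU 7 and CENPU 13 (0.64, limma adjusted p = 0.0148). Among 10 measured shuttle proteins and cofactors of the unfoldase VCP, FAF2 and FAF1 rose by 0.62 and 0.53 and 8 did not pass. Of 12 measured cullin ligase genes, CUL3 rose by 0.90, CDC34 fell and 10 did not pass, CUL4B (1.06) among them. The cullin ligase calls were 16.7% of the list, against the same 10.1%. After median centring 0 were higher and 1 lower, and with the span trend removed 2 were higher and 1 lower. Neither FAF1, FAF2 nor CUL3 passed without control 2, CENPU 7 and CENPU 13 (limma adjusted p from 0.162 to 0.344). TAPBP, which loads peptides made by the proteasome on class I molecules, fell by 0.43, whereas B2M (-0.32) and IRF1 (-0.28) did not pass. Without those 3 clones B2M passed (-0.63, limma adjusted p = 0.0225) and TAPBP did not (-0.39, limma adjusted p = 0.132).

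**Figure D5:**
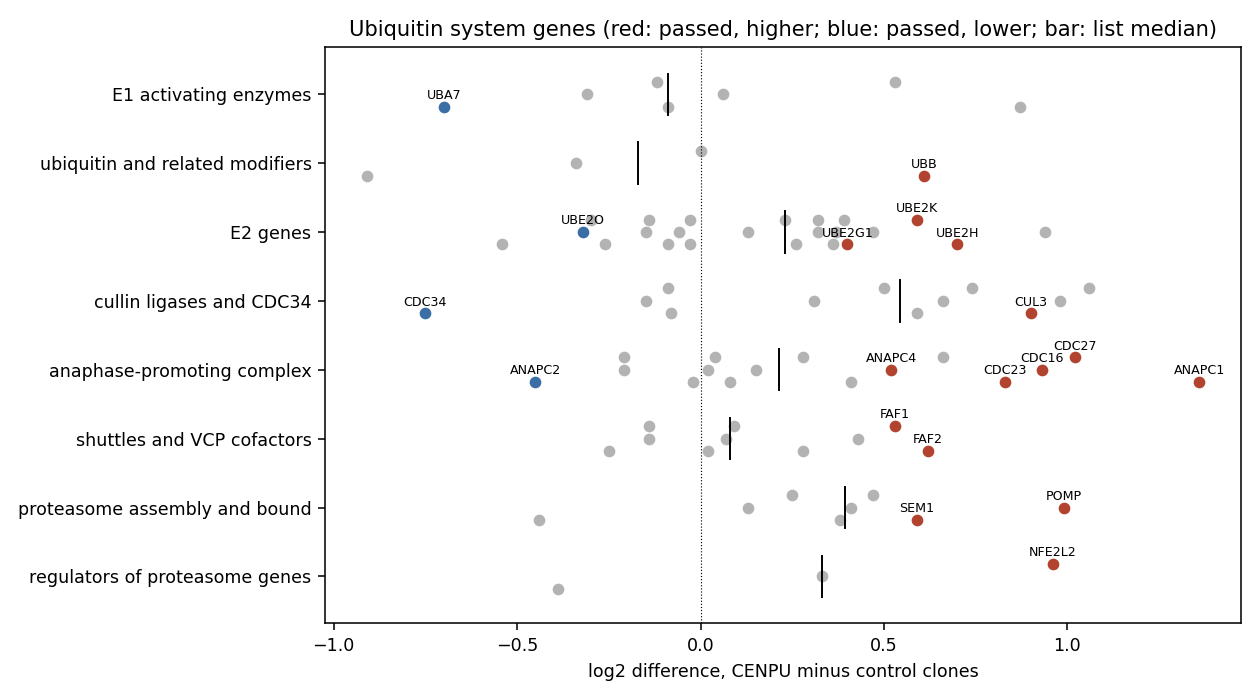
Log2 difference between CENPU and control clones (x axis) for the measured genes of 8 groups of the ubiquitin system (y axis), with red for genes that passed and were higher, blue for those that were lower, grey for the rest and a bar at each group's median. The calls are spread over the groups, with ANAPC1 (1.36) and CDC34 (-0.75) at the ends of the genes that passed.

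The other genes found by the proteasome prefixes are not subunits. PSMC3IP encodes a partner of the strand exchange proteins of homologous recombination and takes its name from binding a cap ATPase. It fell by 0.50 (SE 0.12, limma adjusted p = 0.0264). It was 7.10, 6.60, 7.10, 7.13 and 7.19 in CENPU clones 1, 4, 5, 7 and 13 and 7.73, 7.47, 7.51, 7.55 and 7.38 in control clones 1 to 5. The groups did not overlap, and CENPU 4 was the lowest clone. The call was lost without CENPU 7 or control 1, 2, 3 or 4, with differences of -0.45 to -0.53 and limma adjusted p from 0.0509 to 0.0650. With the span trend removed it differed by -0.42 and did not pass (limma adjusted p = 0.0668).

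None of the 3 antisense RNAs passed in limma. Without a statement on strand, signal of an antisense RNA and of the gene opposite cannot be told apart. PSMB8-AS1 had a log2 difference of -0.26 (limma adjusted p = 0.103), and its 3 rows held the same values in every clone. PSMD6-AS2 was dim and had a log2 difference of 0.10. PSMA3-AS1 was 5.84, 6.16, 5.68, 7.06 and 7.19 in CENPU clones 1, 4, 5, 7 and 13, against 6.06 to 6.82 in control clones. CENPU 7 and 13 were above all controls and CENPU 1 and 5 below them, and the log2 difference of -0.07 became -0.66 without control 2, CENPU 7 and CENPU 13 (limma adjusted p = 0.0424).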

How the data were processed

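RNA of 10 PC-3 clones was measured on 1-channel Affymetrix arrays. The deposited values were log2 expression values, 1 column per clone and 53617 rows, made by the authors with Partek and RMA per the submitters' processing notes, with versions not given in the sources used here. Their range, 1.65 to 15.03, is that of log2 data. RMA brings arrays towards 1 distribution, which hides shifts of the whole transcriptome, and dim rows understate differences. Some differences between arrays remained in the deposited values, with medians from 4.62 to 4.76. A further quantile normalization changed the share of named genes called from 10.1% to 11.5%. Rows were named through GEO's platform table and updated by gene ID to RefSeq GRCh38.p14. It names 16098 rows and 14884 genes, and the row of highest mean stood for each gene. Spans and promoter windows came from RefSeq GRCh38.p14.

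All named rows were fitted with limma 3.58.1 (R 4.3.3, lmFit and eBayes) and Benjamini-Hochberg adjusted, with a call at adjusted p under 0.05. On simulated data for CENPU against control, 16098 rows, the fit recovered 30% of rows changed by 0.5 on the log2 scale, 82% at 1 and 100% at 2 and 3, and 7.14% of calls were false. Only a small part of the simulated rows was changed, and noise was independent between rows. In the data 10.1% of named genes were called and clones shared trends, so these rates need not hold there. Members and lists were chosen with earlier results of these data known. Named by rule were members that passed, the 4 of smallest p per role, UBE2S, and up to 4 list genes that passed. Other members and list genes were named after their values were seen. Sequences were shown for 3 genes that passed and had a RefSeq window. Deviations of clones with the same number correlated at -0.379, 0.104 and 0.0227 for clones 1, 4 and 5. Clones of different number were not compared in this way, so whether numbers pair the clones was not tested. The main fit did not pair them.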

Additional observations from a re-analysis of the deposited data

Results flagged for a closer look

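In groups of 5, 1 clone stood apart from the other 4 by more than Dixon's criterion (0.71 of the range) in 5 of 100 groups examined, 2 for each of 50 genes, and chance gives about 1 in 20. PSMC3IP was 6.60 in CENPU 4, with the nearest clone at 7.10. UBE2H was 6.0 in control 2, with the nearest at 6.45. POMP was 9.38 in CENPU 4, with the nearest at 9.96. KIF4A was 7.14 in control 2, with the nearest at 7.98. AURKB was 9.25 in control 3, with the nearest at 9.72.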

How the results depend on the processing

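No value could be computed for the planned lists of core and cap subunits under any setting, since no named row carried a symbol of those lists. The count of 3 E2 genes called higher was 1 after median centring, 1 with the span trend removed, 0 with the replicate block, 0 without control 2, CENPU 7 and CENPU 13, 0 at a threshold of 0.01 and 5 at 0.1, and 1 to 5 when 1 clone was left out. The count of 1 called lower was 0 with the replicate block, 0 at 0.01 and 0 to 1 without 1 clone. The replicate block used clone numbers, and only the numbers 1, 4 and 5 occur in both groups. The group difference in that fit thus came from those clones alone, with little left to estimate the spread. The replicate block left 55 genes (0.37%) called in all. At an unadjusted p under 0.05 in limma it gave 1 E2 gene higher and 2 lower. The share of all named genes at that level was not taken for that fit, nor the shares at thresholds of 0.01 and 0.1. These E2 counts thus have no background to be read against. Fits without 1 clone called 613 to 2471 genes in all. Of 511 values of single genes, 446 kept direction and side of the threshold, 44 lost a call, 8 gained one and 13 changed sign, all 13 in genes that did not pass. With the replicate block these were UBE2A (-0.18), UBE2G2 (0.01) and UBE2L6 (0.06), without control 2, CENPU 7 and CENPU 13 UBE2A (-0.14), and with the span trend removed UBE2Q1 (0.02). Leaving out 1 clone turned UBE2G2 (range -0.11 to 0.01), UBE2Q1 (-0.08 to 0.01), UBE2U (-0.08 to 0.01) and PSMA3-AS1 (-0.27 to 0.10). The cause was not tested. Small sets of clones and dim rows limit these counts.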

Other observations

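Of the E1 genes, UBA3, the catalytic subunit that activates NEDD8, was 6.48, 6.46, 6.81, 8.28 and 8.41 in CENPU clones 1, 4, 5, 7 and 13 and 8.19, 6.81, 7.76, 7.54 and 7.69 in control clones 1 to 5. Its log2 difference was -0.31 over all clones (limma adjusted p = 0.667) and -1.21 without control 2, CENPU 7 and CENPU 13 (limma adjusted p = 0.0104). It was chosen after its values were seen. Its partner NAE1 was 6.63, 7.08, 7.47, 8.17 and 8.44 in the same CENPU clones and 6.15 to 7.44 in control clones, with a log2 difference of 0.53 (limma adjusted p = 0.348).

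The 4 pseudogenes left out by the rule can share signal with their parent genes. UBE2NL, a copy of UBE2N, had a log2 difference of 0.59 (limma adjusted p = 0.0236) at dim levels of 3.93 and 3.34, and UBE2MP1, a copy of UBE2M, had one of -0.42 (limma adjusted p = 0.0366) at 10.55 and 10.97. UBE2DNL and UBE2Q2P1 did not pass.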
